A study of Mus musculus with 12 samples.

Results

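The genes described here encode the microtubule motors kinesin and cytoplasmic dynein and the dynein partner dynactin. They are the protein-coding mouse genes whose symbol starts with Kif, Klc, Dync1, Dync2 or Dctn followed by a number, and the rule found 56 among the 41388 gene identifiers counted. Of these, 43 had enough reads to be tested and 13 did not. The symbol rule also takes in Kif1bp, which encodes a kinesin-binding protein and not a motor. The mice were C57/Bl6, postnatal day 21, and cortex together with hippocampus gave the RNA of 4 groups of 3 libraries. PAP TRAP (Peripheral Astrocyte Process TRAP) is the RNA pulled down with tagged ribosomes from a gradient layer of synaptoneurosomes, that is of pinched-off synapses and the fine processes around them. Cortex TRAP is the same pull-down from whole tissue. Synaptoneurosome input and cortex input are the RNA of each starting material before the pull-down. Mice of every group, inputs included, carried Aldh1L1::RPL10a-eGFP, a fluorescent tag on a ribosomal protein under a promoter active in astrocytes, and every sample was treated with cycloheximide (1 ug/mL), which stops ribosomes on their messages, and TTX (1 mM), a sodium channel blocker. The tag marks ribosomes by promoter activity, so the pull-downs stand for astrocytes only as far as that promoter and the washing allow. The labels do not say whether the 3 libraries of a group came from separate animals, so p-values measure the spread between these libraries, which may be technical.

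Kinesins and cytoplasmic dynein walk along microtubules and carry cargo: most kinesins walk towards the plus end, away from the cell body in axons, and dynein walks towards the minus end. A kinesin-1 motor joins heavy chains, which hold the motor domain, with light chains that bind cargo, and kinesin-3 motors such as KIF1A haul synaptic and dense-core vesicles. Dynein 1 is built on a very large heavy chain with intermediate, light intermediate and light chains, and needs dynactin to move far. In neurons these motors supply axons and synapses. Messages of some motor heavy chains have themselves been found in neuronal processes.

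The 12 libraries held between 4918113 and 17553985 counts on genes. Counts on nuclear genes numbered 5595315 to 6786096 in PAP TRAP, 4864787 to 7777763 in cortex TRAP, 1423296 to 2476076 in synaptoneurosome input and 5201429 to 6278525 in cortex input, and the mitochondrial chromosome took up to 91.9% of the counts of a library. The synaptoneurosome inputs are therefore the shallowest for the motor genes. As a check of the label, all 12 astrocyte markers were higher in cortex TRAP than in cortex input, and all 15 neuron markers were lower. In PAP TRAP 11 of the 12 astrocyte markers were lower than in cortex TRAP and 14 of the 15 neuron markers higher, together with 6 of 8 oligodendrocyte and 7 of 9 microglia markers. The summed level of the neuron markers was 3202 to 4903 normalized CPM (counts scaled by library size and TMM factor) in PAP TRAP and 1010 to 1413 in cortex TRAP, against 5816 to 9420 in synaptoneurosome input and 7206 to 8532 in cortex input, with none of the 15 at 0 counts in any group. That of the astrocyte markers was 24046 to 47564 in PAP TRAP and 33157 to 44656 in cortex TRAP, against 19733 to 20927 in synaptoneurosome input and 2967 to 3481 in cortex input, again with none at 0. That of the oligodendrocyte markers was 3904 to 5519, 265 to 361, 2608 to 3163 and 1501 to 1544 in the same order of groups, and that of the microglia markers 142 to 200.4, 10.9 to 22.3, 321 to 596 and 52.4 to 59.6, with none at 0 counts. The part of these cell types in the motor gene values was not tested.

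Motor genes come in families of close copies, so a reader may ask whether reads tell the copies apart. The stretches below are the most alike windows of 60 coding bases within 1 exon for 2 pairs whose members differed between the groups, read from the GRCm38 genome and the GENCODE M21 annotation. Each is given 5′ to 3′ in the direction of the gene, with the bases that differ within the pair in capitals. Kif5a and Kif5c are kinesin-1 heavy chains, and both stretches lie in exon 23 (chr10:127233817-127233876, minus strand, and chr2:49752294-49752353, plus strand).
Kif5a: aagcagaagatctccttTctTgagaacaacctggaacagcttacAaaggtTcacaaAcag
Kif5c: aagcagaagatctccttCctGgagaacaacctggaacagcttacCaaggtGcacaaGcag
Dync1i1 and Dync1i2 are the dynein 1 intermediate chains, with stretches in exons 12 and 13 (chr6:5966739-5966798 and chr2:71249345-71249404, both plus strand).
Dync1i1: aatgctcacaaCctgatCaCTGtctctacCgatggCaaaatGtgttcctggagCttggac
Dync1i2: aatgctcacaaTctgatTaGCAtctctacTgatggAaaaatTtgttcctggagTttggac
Even at their most alike, the pairs differed at 5 and 9 of 60 bases. Over 12 pairs of close motor copies the longest identical run of coding bases was 33 (Kif1a and Kif1b), and library fragments were about 200 bp. Reads may be shorter than the fragments, and how well reads told the copies apart was not tested. Of the members, 7 share more than 10% of their exon bases with another gene, among the tested ones Kif3c (40.7%), Kif7 (20.3%), Kif2a (19.2%), Kif4 (15.1%) and Dctn6 (11.8%). Because the strand setting of the counting is not given in the sources used here, the counts of those genes are uncertain.

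The motor genes held a larger share of the messages in both synaptoneurosome groups than in either whole-tissue group. Their share of nuclear gene counts was 1.45%, 1.12% and 1.27% in the PAP TRAP libraries, against 0.466%, 0.360% and 0.358% in cortex TRAP. In synaptoneurosome input it was 2.10%, 1.89% and 1.60%, against 0.849%, 0.937% and 0.858% in cortex input. Means were 1.28% ± 0.169, 0.395% ± 0.0614, 1.86% ± 0.252 and 0.881% ± 0.0483 (SD, n = 3) in that order, and no PAP TRAP library overlapped with cortex TRAP, nor did any synaptoneurosome input overlap with cortex input. As a share of all gene counts, with the mitochondrial chromosome included, the means were 0.751% in PAP TRAP and 0.390% in cortex TRAP, against 0.209% in synaptoneurosome input and 0.455% in cortex input, so that synaptoneurosome input is the lowest on that denominator. A smaller number of cells of a type and less RNA per cell cannot be told apart in these bulk samples.

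The difference in share lay in a few heavy chains. Kif1a, Kif1b, Kif5a, Kif5b, Kif5c and Dync1h1, which were set apart after their values were seen, held 86.4% ± 1.43 of the motor counts in PAP TRAP and 52.2% ± 3.67 in cortex TRAP, against 89.9% ± 1.71 in synaptoneurosome input and 65.4% ± 1.23 in cortex input (SD, n = 3). The share of nuclear counts on the other 50 genes was 0.172% ± 0.0106 in PAP TRAP, 0.188% ± 0.0242 in cortex TRAP, 0.186% ± 0.00545 in synaptoneurosome input, and higher, at 0.305% ± 0.0150, in cortex input. For those 50 the PAP TRAP and cortex TRAP libraries overlapped, and every synaptoneurosome input was below every cortex input.

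**Figure D1:**
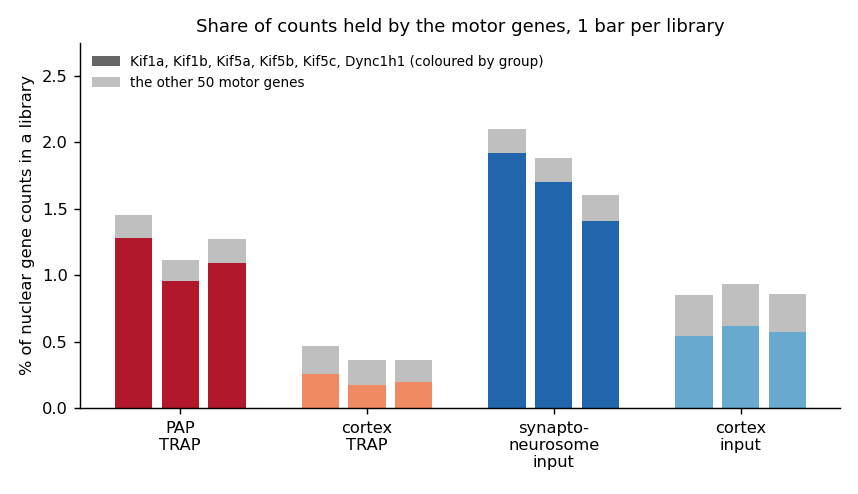
Percent of nuclear gene counts held by the motor genes, with 1 bar for each of the 3 libraries of a group. The coloured part is the sum of the 6 heavy chain genes named in the legend and the grey part the other 50 motor genes. The grey part is between 0.161% and 0.319% everywhere, while the coloured part is 0.954% to 1.28% in PAP TRAP and 0.173% to 0.253% in cortex TRAP.

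Per kilobase of the longest annotated transcript, the level of Kif1a was the highest of all motor genes in PAP TRAP (240.8 ± 19.6 normalized CPM per kb, SD, n = 3), followed by Kif5a (184.6 ± 61.3), Kif1b (106.2 ± 8.82), Kif5c (102.3 ± 19.0), Kif5b (35.5 ± 2.77) and Dync1h1 (31.3 ± 18.9). Kif1a and Kif5a lay within their spread of each other, as did Kif1b and Kif5c, and Kif5b and Dync1h1. In cortex TRAP the order per kilobase was Kif5a (39.5 ± 21.9), Dctn4 (35.7 ± 5.87), Kif1a (29.3 ± 6.86), Kif1b (25.7 ± 3.54) and Dctn6 (24.2 ± 3.95), with neighbours within their spread of each other. Kif5c stood at rank 20 of the 43 in cortex TRAP (3.87 ± 0.854 CPM per kb) and Dync1h1 at rank 27 (2.12 ± 0.263). Of both inputs, synaptoneurosome input had Kif5a (285 ± 116) and Kif1a (275 ± 13.9) highest, and cortex input had Kif5a (84.9 ± 5.93) and Kif1a (67.3 ± 5.12) highest per kilobase.

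PAP TRAP against cortex TRAP asks which motor messages differ between the tagged ribosomes of the synaptoneurosome layer and those of the whole tissue. Of the 43 tested members, 19 were higher and 5 lower in PAP TRAP (edgeR's quasi-likelihood test, Benjamini-Hochberg adjusted over 13364 genes and called at 0.05). Over all genes tested, 19.3% were called higher and 14.6% lower, 33.9% in all. The median log2 change was 1.02 for the members and -0.28 for all genes. All 24 called members had groups that did not overlap, as did 94.7% of all genes called in this comparison.

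PAP TRAP against synaptoneurosome input asks what the pull-down added within the layer. Here 1 member was higher and 1 lower, against 3% and 1.53% of all genes (4.53% in all), with a median of -0.13 for the members and 0.06 for all genes. At an unadjusted p under 0.05 there were 8 of the 43 members, against 20.1% of all genes, and DESeq2 called 5, against 10.7% of the genes it gave an adjusted p. These counts are near the background. In cortex TRAP against cortex input, 3 members were higher and 17 lower, against 15.9% and 19.5% of all genes (35.4% in all), and the medians were -0.72 and 0.05. In synaptoneurosome input against cortex input, 7 members were higher and 0 lower by edgeR, against 7.26% and 2.07% of all genes (9.32% in all). At an unadjusted p under 0.05, 8 members were lower in that comparison, against 10.8% of all genes, and DESeq2 called 1 of them lower, against 4.33% of the genes it gave an adjusted p. The medians were 0.09 for the members, or 0.12 with Kif7, which had 0 counts in synaptoneurosome input, at a floor of 3 counts over the group, and -0.14 for all genes. The comparisons share libraries, so they are set side by side here and not as support for each other.

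**Figure D2:**
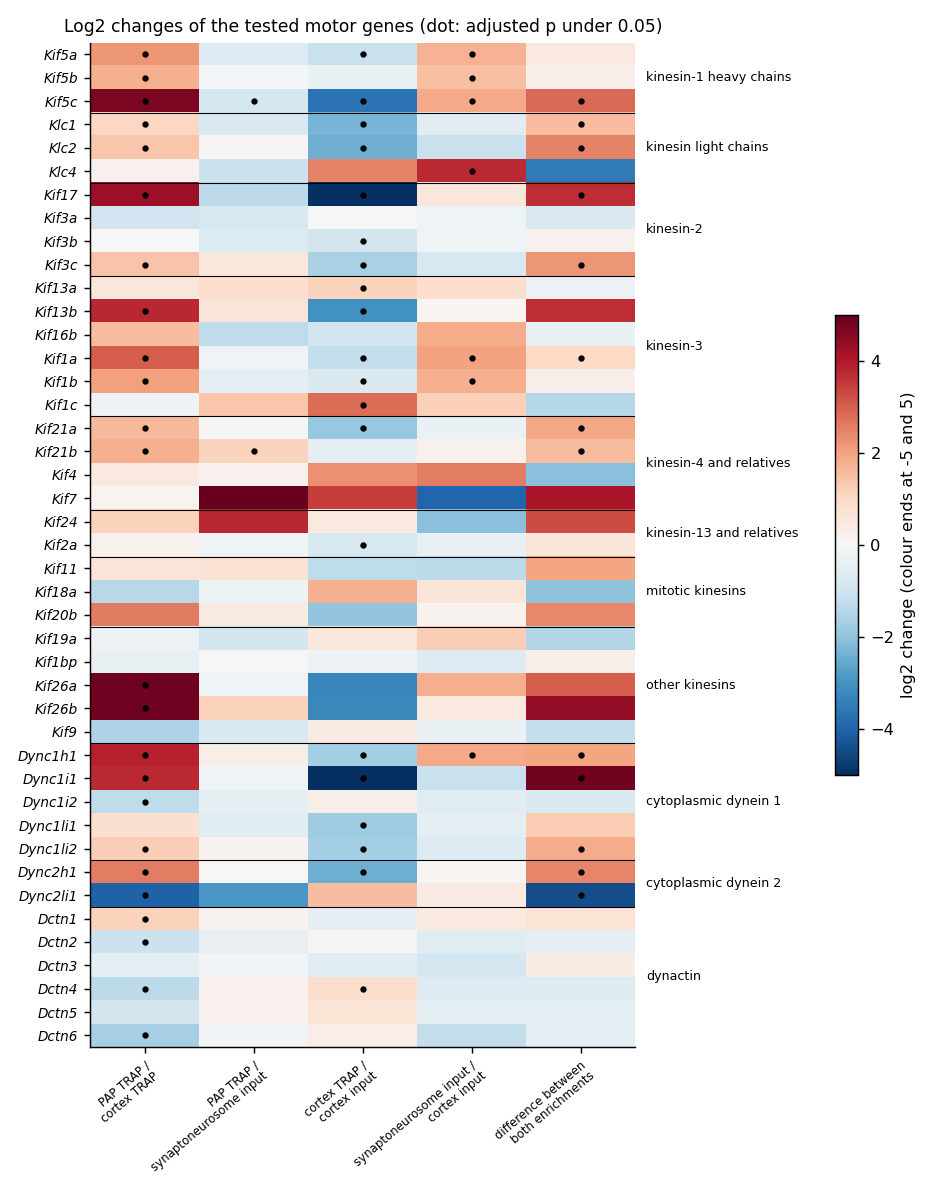
Log2 change of each of the 43 tested motor genes (rows, by role) in the 4 comparisons and in the difference between both enrichments over input (columns), with red for higher and blue for lower and a dot where the adjusted p was under 0.05. PAP TRAP over cortex TRAP has dots in red for 19 genes and in blue for 5, while PAP TRAP over synaptoneurosome input has 1 of each.

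Kinesin-1 heavy chains, which hold the motor domain of conventional kinesin, were higher in PAP TRAP than in cortex TRAP in all 3 members. Of all genes tested, 19.3% were called higher there. Kif5c had 813, 559 and 733 normalized CPM in PAP TRAP, against 24.8, 21.7 and 33.0 in cortex TRAP. Each PAP TRAP library was far above each cortex TRAP library, a 26.4-fold difference (95% interval 17.9 to 38.9, log2 change 4.72 ± 0.27 SE, edgeR adjusted p = 2.84e-10). Kif5a, the heavy chain of neurons mutated in inherited axonal disease of people, had 1595, 855 and 1035 CPM in PAP TRAP, against 404, 142 and 201 in cortex TRAP. Those groups did not overlap either, at 4.67-fold (2.77 to 7.86, adjusted p = 8.52e-05), and the log2 change of 2.22 was 2.88 without cortex TRAP replicate 1, the highest of its group. Kif5b, the heavy chain of most cell types, had 232, 210.0 and 199.9 CPM in PAP TRAP, against 68.9, 55.6 and 64.8 in cortex TRAP, 3.39-fold higher (2.31 to 4.98, adjusted p = 3.75e-05).

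Set against their own inputs the same heavy chains parted. In cortex TRAP, Kif5c was 12.9-fold lower than in cortex input (8.93 to 18.7, adjusted p = 4.35e-09), where it had 293, 387 and 349 CPM. Kif5a was lower by a log2 change of -1.10 ± 0.35 (adjusted p = 0.018). That change was -1.77 without cortex TRAP replicate 1, and -0.77 (adjusted p = 0.098) once offsets were corrected for the joined length of a gene's exons. Kif5b had -0.35 ± 0.26 and was not called (adjusted p = 0.321). In PAP TRAP against synaptoneurosome input, where Kif5c had 1359, 1314 and 1169 CPM, it was the only member called lower (-0.87 ± 0.23, adjusted p = 0.0367). That call is narrow: it ended without mitochondrial genes (-0.74, adjusted p = 0.0594), with GC-corrected offsets (-0.79, adjusted p = 0.0665) and when any of 8 libraries was left out, namely each cortex input, each synaptoneurosome input and PAP TRAP replicates 2 and 3 (from -0.91 to -0.72, adjusted p from 0.0593 to 0.123). Kif5a (-0.63 ± 0.34) and Kif5b (-0.08 ± 0.26) were not called there.

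**Figure D3:**
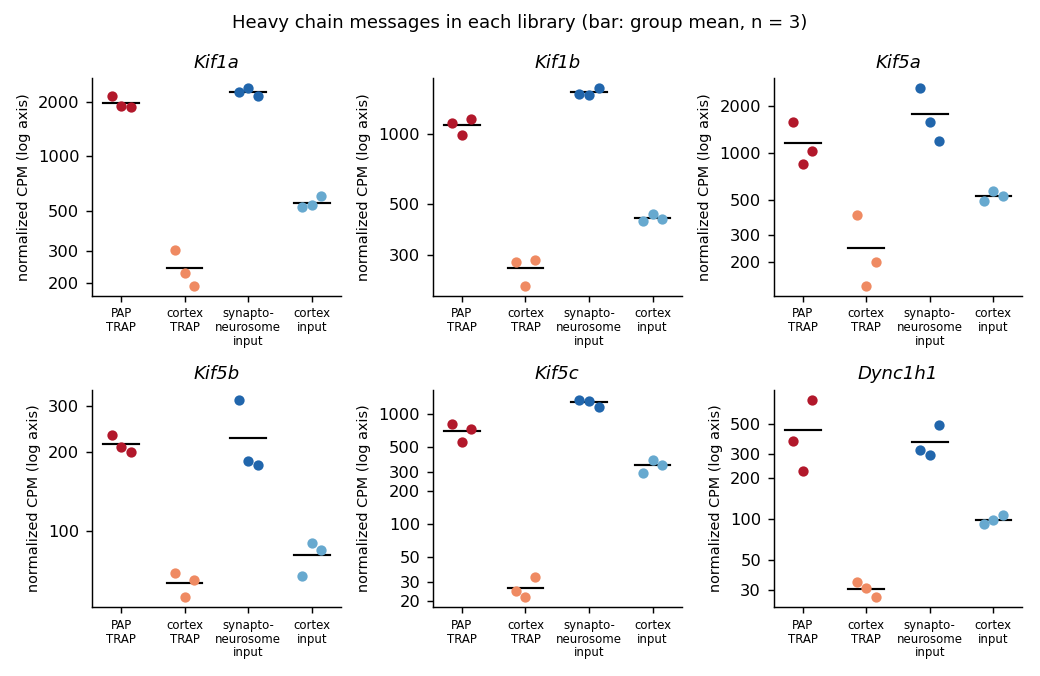
Normalized CPM on a log axis of 6 heavy chain genes in each library, grouped as PAP TRAP, cortex TRAP, synaptoneurosome input and cortex input, with the group mean as a bar (n = 3). In every panel the 3 PAP TRAP libraries lie above the 3 cortex TRAP libraries, and the 3 synaptoneurosome inputs above the 3 cortex inputs; Kif5c shows the widest gap, 559 to 813 against 21.7 to 33.0.

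Light chains of kinesin-1 bind cargo and hold the motor inactive without it. Of the 3 tested, 2 were higher in PAP TRAP than in cortex TRAP, against 19.3% of all genes. Klc1 had 38.9, 32.8 and 48.8 CPM in PAP TRAP, against 20.4, 18.5 and 20.4 in cortex TRAP (2.03-fold, 1.40 to 2.95, adjusted p = 0.00474). Klc2 had 31.4, 22.6 and 22.4 CPM in PAP TRAP, against 9.63, 7.30 and 12.4 in cortex TRAP (2.59-fold, 1.48 to 4.55, adjusted p = 0.01; 0.98 on the log2 scale and adjusted p = 0.0519 with GC-corrected offsets). Both light chains had smaller log2 changes, 1.02 and 1.38, than the heavy chains Kif5c (4.72), Kif5a (2.22) and Kif5b (1.76). The fold intervals of both light chains overlapped those of Kif5a and Kif5b. These differences between genes were not tested. Relative to cortex input, cortex TRAP was lower by -2.31 ± 0.27 for Klc1 and by -2.43 ± 0.40 for Klc2 (adjusted p = 1.32e-06 and 7.76e-05). Unlike the heavy chains, neither was higher in synaptoneurosome input than in cortex input (Klc1 -0.54 ± 0.26, Klc2 -1.11 ± 0.39, adjusted p = 0.203 and 0.0802; Klc2 without synaptoneurosome input replicate 1 had -1.65, adjusted p = 0.0188). Klc4, a low message with 13 counts in all cortex inputs, was called higher in synaptoneurosome input (0.912, 4.78 and 5.40 CPM against 0.166, 0.332 and 0.306; 3.75 ± 1.14, adjusted p = 0.0441), and that call ended in 12 of 19 alternatives (adjusted p from 0.0509 to 0.175 there), among them leaving out any cortex input or cortex TRAP library, synaptoneurosome input replicates 2 or 3 or PAP TRAP replicates 1 or 2.

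Kinesin-3 motors carry vesicle precursors and other membrane cargo. Kif1a, the main transporter of synaptic vesicle precursors, had 2161, 1903 and 1865 CPM in PAP TRAP, against 302, 226 and 192 in cortex TRAP. The groups were far apart, at 8.23-fold (5.92 to 11.4, adjusted p = 6.08e-09). Kif1b, whose splice forms carry mitochondria or vesicle precursors, had 1111, 987 and 1162 CPM in PAP TRAP, against 281, 221 and 286 in cortex TRAP, 4.14-fold (3.06 to 5.59, adjusted p = 3.01e-07). Length-corrected offsets left 2.30 of the log2 change of 3.04 for Kif1a and 0.55 of the 2.05 for Kif1b (adjusted p = 2.51e-07 and 0.047). In cortex TRAP both were below cortex input, Kif1a by -1.20 ± 0.21 (adjusted p = 0.000186) and Kif1b by -0.72 ± 0.20 (adjusted p = 0.00791; 0.38, on the other side of 0, with length-corrected offsets, adjusted p = 0.163).

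Kif1c, a kinesin-3 motor of many cell types, went the other way in cortex TRAP. It had 57.2, 62.1 and 49.8 CPM in cortex TRAP, against 6.09, 7.58 and 10.7 in cortex input. All 3 cortex TRAP libraries were far above the inputs, at 6.94-fold (3.86 to 12.5, adjusted p = 2.01e-05), and the call held in all 20 alternatives. It had 36.6, 56.7 and 50.4 CPM in PAP TRAP, against 11.5, 32.2 and 11.6 in synaptoneurosome input, groups that did not overlap (1.38 ± 0.39). That change missed the threshold (adjusted p = 0.0503) and passed it in 6 alternatives, among them DESeq2 (1.32, adjusted p = 0.0158) and without synaptoneurosome input replicate 2 (2.05, adjusted p = 0.0147). Between PAP TRAP and cortex TRAP the Kif1c libraries overlapped (-0.24 ± 0.38, adjusted p = 0.655).

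Kif13a, a motor of endosomal cargo, was 1 of the other 2 members called higher in cortex TRAP than in cortex input (16.4, 17.7 and 12.97 CPM against 8.36, 8.71 and 4.65; 1.12 ± 0.42, adjusted p = 0.0474), and the call ended in 13 of 20 alternatives, including the removal of any cortex TRAP or cortex input library (0.73 to 1.26, adjusted p from 0.0776 to 0.286) or of replicates 1 or 2 of either synaptoneurosome group (adjusted p from 0.0531 to 0.0556). Kif13b had 8.95, 1.49 and 6.605 CPM in PAP TRAP, against 0.793, 0.166 and 0.239 in cortex TRAP (3.77 ± 1.11, adjusted p = 0.0131), where all cortex TRAP libraries together held 20 counts. The change was 4.83 without cortex TRAP replicate 1, and the call ended without PAP TRAP replicate 1 (3.29, adjusted p = 0.0523) and with length-corrected offsets (2.59, adjusted p = 0.0717).

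Kinesin-2 motors serve cilia and, in neurons, dendritic and axonal cargo. Kif17, a dendritic motor of glutamate receptor vesicles, was low throughout, with 4.12, 4.46 and 1.63 CPM in PAP TRAP, against 0.340, 0.0829 and 0.0598 in cortex TRAP. All 3 cortex TRAP libraries lay below every other library of any group, on 8 counts in all. Its change was 4.27 ± 0.97 in PAP TRAP over cortex TRAP (adjusted p = 0.0022; 5.51 without cortex TRAP replicate 1) and -5.01 ± 0.99 in cortex TRAP over cortex input (adjusted p = 0.000521; -6.25 without cortex TRAP replicate 1). Kif3c, another kinesin-2 gene, had 43.6, 51.2 and 75.2 CPM in PAP TRAP, against 22.8, 26.7 and 14.0 in cortex TRAP (2.68-fold, 1.69 to 4.26, adjusted p = 0.00202). It was lower in cortex TRAP than in cortex input (-1.63 ± 0.32, adjusted p = 0.000496). Its exons overlap another gene as given above.

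Kif3a, a subunit of the kinesin-2 that builds cilia, rested on 1 library. It had 38.3, 17.9 and 59.0 CPM in PAP TRAP and 191, 21.1 and 9.32 in cortex TRAP, against 84.0, 78.3 and 65.0 in cortex input. Cortex TRAP replicate 1 alone was above all cortex inputs, and both other cortex TRAP libraries were far below them. With all libraries the change in PAP TRAP over cortex TRAP was -0.94 ± 0.70 (adjusted p = 0.31), and without cortex TRAP replicate 1 it was 1.47 (adjusted p = 0.0225). In cortex TRAP over cortex input the change was -0.04 ± 0.69, and -2.46 without that library (adjusted p = 0.000446). Kif3b, its usual partner, was lower in cortex TRAP than in cortex input (29.96, 26.3 and 12.1 CPM against 45.6, 41.3 and 41.5; -0.91 ± 0.35, adjusted p = 0.0476). That call ended in 9 of 20 alternatives, among them leaving out cortex TRAP replicate 3, cortex input replicates 1 or 2, synaptoneurosome input replicate 1 or the first PAP TRAP library (-1.01 to -0.76, adjusted p from 0.0535 to 0.0997).

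Among kinesin-4 motors, which slow microtubule growth, Kif21a and Kif21b were both higher in PAP TRAP than in cortex TRAP. Kif21a had 99.7, 56.7 and 62.6 CPM in PAP TRAP, against 28.9, 29.2 and 13.7 in cortex TRAP (3.05-fold, 1.90 to 4.88, adjusted p = 0.000796). Kif21b had 112, 113 and 149.8 CPM in PAP TRAP, against 44.8, 40.8 and 22.5 in cortex TRAP (3.47-fold, 2.22 to 5.41, adjusted p = 0.000157; 0.72 on the log2 scale and adjusted p = 0.0708 with length-corrected offsets). Kif21b was also the only member called higher in PAP TRAP than in synaptoneurosome input, where it had 66.2, 61.2 and 45.9 CPM (2.16-fold, 1.39 to 3.36, adjusted p = 0.0418). That call ended with RLE scaling (adjusted p = 0.0553), with GC-corrected offsets (adjusted p = 0.139) and without any of the 9 PAP TRAP, synaptoneurosome input and cortex input libraries (log2 changes from 0.97 to 1.23, adjusted p from 0.0542 to 0.142). In cortex TRAP over cortex input Kif21a fell by 1.88 on the log2 scale (SE 0.33, adjusted p = 0.000148), and Kif21b had -0.47 ± 0.30 (adjusted p = 0.241).

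The remaining kinesins were mostly low. Kif2a, which takes apart microtubule ends, had 44.8, 42.6 and 40.1 CPM in PAP TRAP, against 33.4, 36.8 and 38.5 in cortex TRAP (0.23 ± 0.26, adjusted p = 0.512). It was lower in cortex TRAP than in cortex input (-0.79 ± 0.26, adjusted p = 0.0222), a call that ended without cortex input replicate 2 (-0.71, adjusted p = 0.102), with no filter (-0.80, adjusted p = 0.0953), with GC-corrected offsets (-0.33) and with length-corrected offsets (-0.56). Of the 11 mitotic kinesins, motors of the spindle, 4 were tested and edgeR called 0 in each of the 5 comparisons, with 0 at an unadjusted p under 0.05 and 0 by DESeq2. Over all genes edgeR called from 4.53% to 35.4%, depending on the comparison. The 4 tested held only 89 to 255 counts each over all 12 libraries, so changes in them could be missed. Kif14, a mitotic kinesin that was not tested, had 29, 8 and 0 counts in PAP TRAP against 1 in all of cortex TRAP. That is a ratio of 47.3 after scaling (95% counting interval 7.97 to 1916). Kif11, the spindle motor Eg5, had 0.878, 1.07 and 1.32 CPM in PAP TRAP, against 0.623, 0.663 and 0.777 in cortex TRAP, on 40 and 32 counts. The summed level of 8 markers of dividing cells was likewise low, 7.93 to 15.1 CPM in PAP TRAP and 6.04 to 14.4 in cortex TRAP, with none at 0 counts in either group. Kif26a and Kif26b, atypical kinesins without measured motility, were called higher in PAP TRAP than in cortex TRAP on very few counts. Kif26a had 54 counts in PAP TRAP against 2 in cortex TRAP, a ratio of 34.5 after scaling (95% counting interval 9.10 to 292), and Kif26b had 79 against 3, a ratio of 33.6 (11.1 to 167). The call of Kif26a ended on leaving out any cortex TRAP library or the second PAP TRAP library, with adjusted p from 0.0555 to 0.0746, and that of Kif26b without cortex TRAP replicates 1 or 2 (adjusted p = 0.05505 and 0.0511) and with length-corrected offsets (adjusted p = 0.053). Of the 13 members not tested, Kif12 and Kif2b had 0 counts in every library and the others at most 37 counts in a library.

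Subunits of dynein 1 moved in different directions. Dync1h1, the heavy chain with the motor, had 372, 224 and 750.2 CPM in PAP TRAP, against 34.0, 30.7 and 26.5 in cortex TRAP. All PAP TRAP libraries were above all cortex TRAP libraries, with a wide spread among them, at 14.8-fold (8.62 to 25.3, log2 change 3.88 ± 0.37, adjusted p = 1.34e-07). The log2 change was 3.30 without PAP TRAP replicate 3, the highest, and 2.49 with length-corrected offsets, and stayed called in both. Dync1h1 is the longest of the tested motor transcripts, at 14.3 kb.

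The intermediate chains, which link the heavy chain to dynactin and cargo, went opposite ways. Dync1i1, the form typical of neurons, had 4.83, 1.74 and 10.3 CPM in PAP TRAP, against 0.283, 0.0829 and 0.837 in cortex TRAP (3.74 ± 0.80, adjusted p = 0.00135), on 209 and 20 counts. Without PAP TRAP replicate 3 the change was 2.96, and without cortex TRAP replicate 3 it was 4.93, called both times. Dync1i2, the form found in most cell types, had 20.3, 29.5 and 33.0 CPM in PAP TRAP, against 63.4, 67.004 and 67.8 in cortex TRAP, 2.39-fold lower (1.49 to 3.83, adjusted p = 0.00569). In cortex TRAP over cortex input Dync1i1 was 31.4-fold lower (9.35 to 106, adjusted p = 0.000103), with 13.2, 13.7 and 12.8 CPM in cortex input, while Dync1i2 was not called (0.29 ± 0.32, adjusted p = 0.508). Both genes differ at the bases in capitals above. Whether the counted reads covered those bases was not tested.

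The light intermediate chains, which bind the adaptors that activate dynein, were lower in cortex TRAP than in cortex input in both members, Dync1li1 by -1.77 ± 0.51 (adjusted p = 0.0108) and Dync1li2 by -1.69 ± 0.26 (adjusted p = 4.26e-05). Over all genes tested, 19.5% were called lower in that comparison. Dync1li2 had 93.1, 89.9 and 78.6 CPM in PAP TRAP, against 30.5, 33.1 and 48.3 in cortex TRAP (2.34-fold, 1.60 to 3.40, adjusted p = 0.00123). Dync1li1 had 17.5, 5.12 and 16.9 CPM in PAP TRAP, against 7.93, 6.80 and 7.65 in cortex TRAP, groups that overlapped (0.82 ± 0.51, adjusted p = 0.221).

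Dynein 2 moves cargo back down cilia, and its 2 members were opposite as well. Dync2h1, the heavy chain, had 29.5, 23.3 and 15.5 CPM in PAP TRAP, against 5.04, 1.41 and 4.96 in cortex TRAP (5.93-fold, 3.06 to 11.5, adjusted p = 0.000234; 1.15 on the log2 scale and adjusted p = 0.0603 with length-corrected offsets). Dync2li1, the light intermediate chain, had 0.702, 0.248 and 0.544 CPM in PAP TRAP, against 14.4, 4.40 and 6.39 in cortex TRAP, on 18 and 414 counts. It was 16.6-fold lower (4.84 to 56.7, log2 change -4.05 ± 0.85, adjusted p = 0.00111; -3.29 without cortex TRAP replicate 1). Markers of ependyma and choroid plexus, whose cells bear cilia, were also high in cortex TRAP. The sum of the 6 was 34.7, 24.3 and 8.55 CPM in PAP TRAP and 400.2, 281 and 123 in cortex TRAP, against 93.3, 44.8 and 18.1 in synaptoneurosome input and 31.6, 27.5 and 18.3 in cortex input. Most of it was Ttr, the transthyretin of choroid plexus, which was lower in PAP TRAP than in cortex TRAP by a log2 change of -3.71 ± 0.58 (adjusted p = 6.07e-05). Of the other 5, Foxj1, a regulator of motile cilia, was not called (-1.05 ± 1.00, adjusted p = 0.435) and 4 were too low to be tested. Summed, those 5 had 1.84, 4.55 and 1.24 CPM in PAP TRAP and 7.42, 13.5 and 1.85 in cortex TRAP. Tmem212 was at 0 counts in both of these groups and Ccdc153 in PAP TRAP. The part of these cells in the Dync2li1 difference was not tested.

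Dynactin, the complex that makes dynein processive, fell in 3 of 6 members in PAP TRAP relative to cortex TRAP and rose in 1. Of all genes tested, 14.6% were called lower and 19.3% higher there, so the share of higher members was near the background. Dctn4 had 59.9, 77.6 and 52.1 CPM in PAP TRAP, against 126, 175 and 162 in cortex TRAP, 2.45-fold lower (1.68 to 3.56, adjusted p = 0.000725). Dctn6, like Dctn4 a subunit of the pointed end of the complex, had 5.002, 15.1 and 8.55 CPM in PAP TRAP, against 34.8, 30.8 and 25.0 in cortex TRAP, 3.16-fold lower (1.74 to 5.75, adjusted p = 0.00434). Dctn2, the subunit dynamitin, had 12.7, 12.3 and 16.2 CPM in PAP TRAP, against 31.7, 30.02 and 26.1 in cortex TRAP (-1.09 ± 0.32, adjusted p = 0.0144), and that call ended without cortex TRAP replicates 1 or 2 or PAP TRAP replicate 1 (-0.90, -0.94 and -1.03, adjusted p from 0.0524 to 0.0792). The Dctn2 call also ended with no filter (adjusted p = 0.0549) and with the compared groups alone (adjusted p = 0.0789). Dctn1, the arm p150 that grips microtubules, was the member that rose, with 23.9, 17.9 and 32.6 CPM in PAP TRAP against 14.6, 6.55 and 12.01 in cortex TRAP (1.17 ± 0.39, adjusted p = 0.0253). It was no longer called without cortex TRAP replicate 2 or PAP TRAP replicates 1 or 3 (1.03, 1.2 and 0.92, adjusted p from 0.0504 to 0.104) or with GC- or length-corrected offsets (0.89 and 0.83). Its call was also lost with no filter (1.16, adjusted p = 0.058). Dctn4 was also higher in cortex TRAP than in cortex input, where it had 71.4, 89.7 and 90.8 CPM (0.88 ± 0.26, adjusted p = 0.0107), a call lost on leaving out replicates 1 or 3 of cortex input or replicates 2 or 3 of cortex TRAP (0.63 to 0.80, adjusted p from 0.0629 to 0.141).

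**Figure D4:**
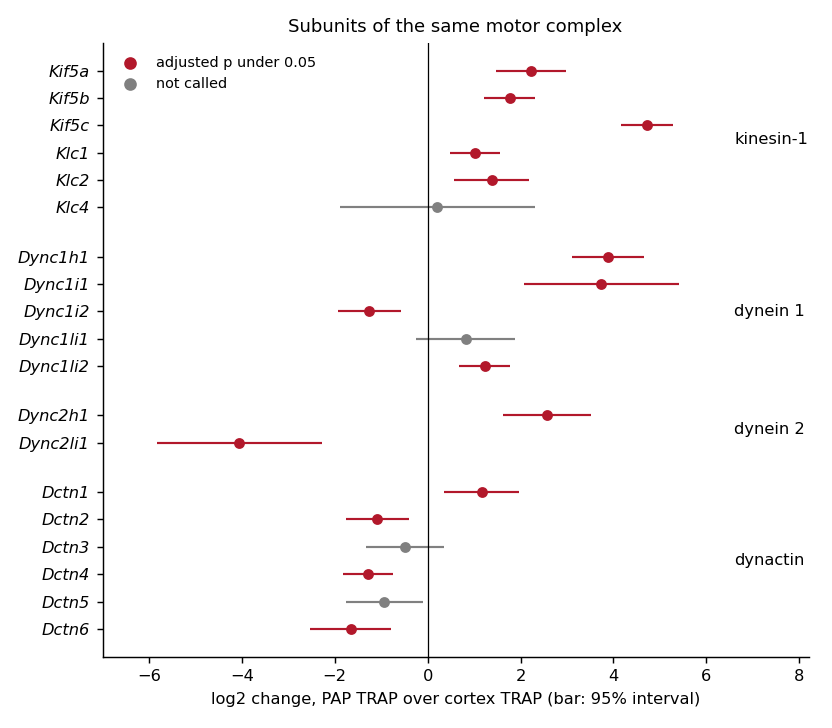
Log2 change in PAP TRAP over cortex TRAP (x axis) with its 95% interval for each tested subunit of kinesin-1, dynein 1, dynein 2 and dynactin, in red where the adjusted p was under 0.05. Within dynein 1 the heavy chain Dync1h1 lies at 3.88 and the intermediate chain Dync1i2 at -1.26, and within dynactin Dctn1 at 1.17 and Dctn6 at -1.66.

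The members called higher in synaptoneurosome input than in cortex input, which compares total RNA before any pull-down, were Kif1a, Kif1b, Kif5a, Kif5b, Kif5c, Dync1h1 and Klc4. Kif1a had 2256, 2371 and 2142 CPM in synaptoneurosome input, against 521, 535 and 600.1 in cortex input (4.09-fold, 2.97 to 5.61, adjusted p = 8.25e-06). Kif5c was 3.73-fold higher (2.65 to 5.26), Dync1h1 3.74-fold (2.28 to 6.13), Kif1b 3.48-fold (2.58 to 4.69), Kif5a 3.36-fold (2.01 to 5.61) and Kif5b 2.82-fold (1.93 to 4.13), with adjusted p-values from 1.62e-05 to 0.00326. For those heavy chains the libraries did not overlap, as for 98.6% of all genes called there, and the call held in all 20 alternatives. The order of the groups was thus synaptoneurosome input, PAP TRAP, cortex input and cortex TRAP by mean level for Kif1a, Kif1b, Kif5a, Kif5b and Kif5c, and PAP TRAP, synaptoneurosome input, cortex input and cortex TRAP for Dync1h1. For Kif1a, Kif5a, Kif5b and Dync1h1 the libraries of PAP TRAP and synaptoneurosome input overlapped.

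Transcript length moved with these results. In PAP TRAP over cortex TRAP, all 7 tested members with a transcript over 8 kb were called higher and none lower, with a median log2 change of 3.04, against 4 higher and 3 lower of 15 members under 4 kb. The same held for genes at large: of 870 tested genes over 8 kb, 472 were called higher and 29 lower (median 1.38), against 814 higher and 1559 lower of 7928 genes under 4 kb (median -0.79). In synaptoneurosome input over cortex input, 152 of the genes over 8 kb were higher and 22 lower. The length-corrected offsets used another length, that of all annotated exons joined. For Kif1b this was 17608 bases, where the longest transcript has 10233. With those offsets, Kif5c, Kif1a, Dync1h1, Kif1b, Kif5b and Kif5a were still called higher in PAP TRAP, and Kif21b, Dync2h1, Dctn1, Kif13b and Kif26b were not.

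**Figure D5:**
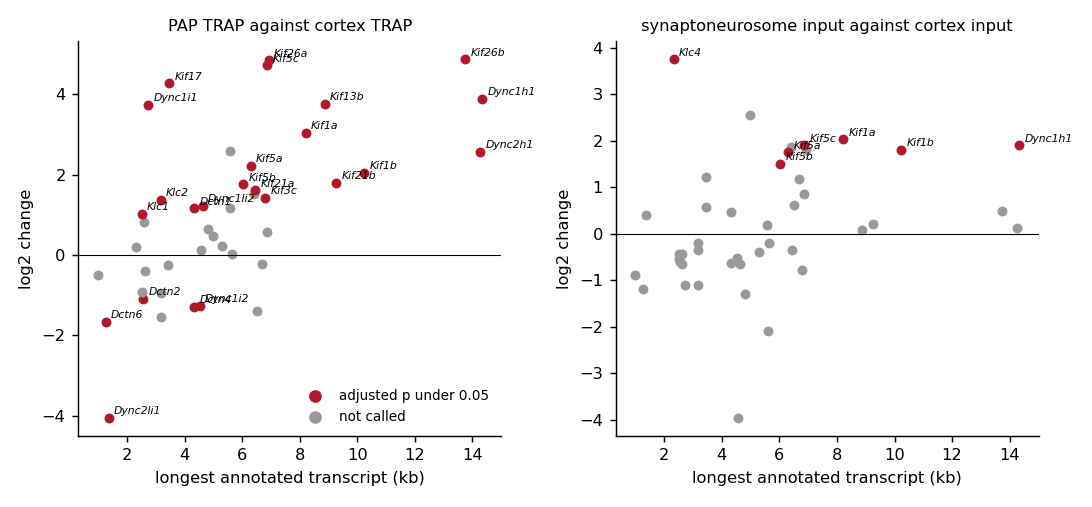
Log2 change of each tested motor gene (y axis) against the length of its longest annotated transcript in kb (x axis), for PAP TRAP over cortex TRAP (left) and synaptoneurosome input over cortex input (right), in red where the adjusted p was under 0.05. On the left all 7 members over 8 kb are called higher, from Kif21b at 1.79 to Kif26b; on the right the called members over 8 kb are Kif1a, Kif1b and Dync1h1.

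The difference between both enrichments, PAP TRAP over synaptoneurosome input minus cortex TRAP over cortex input, tests whether the enrichment of a message over its input differed between the layer and whole tissue. It was called above 0 for 12 members and below 0 for 1, against 12.9% and 7.32% of all genes (20.2% in all). The median was 0.61 for the members (0.47 with Kif7 at the floor) and 0.03 for all genes. Kif5c had 2.82 ± 0.33 (adjusted p = 6.49e-06): the log2 change was -0.87 in the layer and -3.69 in whole tissue. For Dync1i1 these changes were -0.13 and -4.97 (difference 4.84 ± 1.06, adjusted p = 0.00277), and for Klc2 0.05 and -2.43 (2.48 ± 0.55, adjusted p = 0.00287). Kif1b (0.25 ± 0.28), Kif5a (0.47 ± 0.49) and Kif5b (0.27 ± 0.36) were not called. With length-corrected offsets Kif1b was called on the other side of 0 (-0.91, adjusted p = 0.0332). Of the 15 neuron markers, 13 were called above 0 in this comparison, and all 12 astrocyte markers below 0.

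Other genes of the motor pathway were taken from lists of partners. Of 23 tested kinesin cargo adaptors and partners, 14 were higher and 2 lower in PAP TRAP than in cortex TRAP, against 19.3% and 14.6% of all genes, with a median log2 change of 1.42, against -0.28 for all genes. Apba1, an adaptor between KIF17 and receptor vesicles, had 284, 207 and 211 CPM in PAP TRAP, against 20.2, 15.1 and 12.7 in cortex TRAP (3.87 ± 0.30, adjusted p = 8.28e-09). Madd, which links KIF1A to Rab3 vesicles, had 95.8, 65.1 and 74.0 CPM in PAP TRAP, against 4.81, 10.7 and 5.92 in cortex TRAP (3.46 ± 0.35, adjusted p = 3.01e-07). The 2 lower ones were Gphn (-1.01, adjusted p = 0.0387) and Fez1 (-0.95, adjusted p = 0.0477), and these calls ended in 15 and 17 of 20 alternatives. Among those were RLE scaling (adjusted p = 0.0514 and 0.0618), no filter, no mitochondrial genes, length-corrected offsets, the compared groups alone (adjusted p = 0.162 and 0.19) and leaving out cortex TRAP replicate 1 (-0.61 and -0.62, adjusted p = 0.272 and 0.252).

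Of the same 23, 3 were higher in PAP TRAP than in synaptoneurosome input, against 3% of all genes. Mapk8ip2, a kinesin-1 scaffold of the JIP family, had 136, 146 and 137 CPM in PAP TRAP, against 31.0, 40.3 and 68.7 in synaptoneurosome input (1.58 ± 0.41, adjusted p = 0.034). Its relative Mapk8ip1 had 105, 63.1 and 82.1 CPM in PAP TRAP, against 34.6, 36.7 and 28.4 in synaptoneurosome input (1.33 ± 0.29, adjusted p = 0.0128). The groups of both genes did not overlap. Both calls ended with GC-corrected offsets (adjusted p = 0.0786 and 0.0701), that of Mapk8ip1 also without synaptoneurosome input replicate 3 or PAP TRAP replicate 1 (1.24 and 1.14, adjusted p = 0.0575 and 0.053), and that of Mapk8ip2 without any PAP TRAP library, synaptoneurosome input replicates 1 or 2 or cortex input replicate 2 (1.36 to 1.60, adjusted p from 0.0513 to 0.137). In cortex TRAP against cortex input 10 of the 23 were lower, against 19.5% of all genes, led by Ppfia2, a liprin of the release site (-4.14 ± 0.35, adjusted p = 3.48e-08), and Lin7a (-3.48 ± 0.31, adjusted p = 6.82e-08).

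Of 5 tested dynein light chains, 3 were lower in PAP TRAP than in cortex TRAP, where 14.6% of all genes were lower. Dynll1 had 16.4, 22.6 and 22.3 CPM in PAP TRAP, against 75.7, 74.6 and 75.1 in cortex TRAP (-1.88 ± 0.31, adjusted p = 9.59e-05), and Dynlrb1 had 54.1, 122 and 78.5 against 224, 240.3 and 224 (-1.44 ± 0.31, adjusted p = 0.0015; -0.43 and adjusted p = 0.276 with length-corrected offsets). Of 15 dynein regulators and activating adaptors, 5 were higher and 2 lower, against 19.3% and 14.6% of all genes, so that the count of lower ones is at the background. Rab11fip3, an adaptor for recycling endosomes, had 59.2, 35.7 and 42.8 CPM in PAP TRAP, against 12.9, 10.03 and 6.87 in cortex TRAP (2.21 ± 0.34, adjusted p = 4.99e-05). Nde1, a dynein regulator of dividing and migrating cells, had 7.55, 14.6 and 8.47 CPM in PAP TRAP, against 22.4, 42.8 and 36.4 in cortex TRAP (-1.73 ± 0.49, adjusted p = 0.00997; no longer called without cortex TRAP replicate 2, at -1.39 and adjusted p = 0.0714, or PAP TRAP replicate 1, at -1.55 and adjusted p = 0.0512). Nde1 had 2.05, 2.53 and 2.20 CPM in cortex input, so that cortex TRAP was above it by 3.901 ± 0.53 (adjusted p = 1.06e-05). Of the 6 other dynactin subunits, 1 was lower in PAP TRAP than in cortex TRAP, a share near the background, the capping protein Capzb (-1.14 ± 0.29, adjusted p = 0.00536; -0.72 and adjusted p = 0.0814 without cortex TRAP replicate 2). The Capzb call also ended with length-corrected offsets (-0.73, adjusted p = 0.0599) and with the compared groups alone (-0.96, adjusted p = 0.05004).

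Of 3 tested kinesins outside the symbol rule, Kifc2, a C-terminal kinesin of neurons, had 319, 226 and 275 CPM in PAP TRAP, against 5.95, 27.1 and 28.1 in cortex TRAP (3.75 ± 0.42, adjusted p = 1.07e-06). The other called higher was Cenpe, a centromere motor, with a total of 189 counts in PAP TRAP, of which 0 in replicate 3 and 149 in replicate 2, against 1 in cortex TRAP, a ratio of 241 with a counting interval of 42.8 to 9585. Over all genes tested, 19.3% were called higher in that comparison.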

How the data were processed

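Per the labels' protocols, tagged ribosomes were immunoprecipitated, 2 ng of RNA was amplified by SPIA and 500 ng of cDNA was sheared to about 200 bp. Amplified reads are not independent molecules, so counting intervals and floors (3 counts) cover counting error only. The authors deposited raw read counts per gene for each library. The submitters' processing notes name Trimmomatic 0.32, Bowtie2, STAR and HTSeq. Their genome build, annotation and use of strand were not given in the sources used here. Identifiers got symbols from GENCODE M21 (GRCm38), which matched 40254 of 41388. Rows naming no gene held 20.3% to 55.5% of a library's counts and were left out.

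Nuclear and mitochondrial gene counts entered edgeR 4.0.16 (TMM, filterByExpr with a minimum count of 10 and total of 15, quasi-likelihood fit of all 12 libraries with 1 mean per group; R 4.3.3). The 13364 tested genes were adjusted by Benjamini-Hochberg and called at 0.05. Intervals of fold changes are 95%.

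The members and lists were chosen with earlier results of these data known. Named members are the called ones with the smallest p, up to 8 per direction and comparison, and a fixed set of 21. The other called members were added after their values were seen. Named partner genes are up to 2 per list, direction and comparison. Alternatives were RLE scaling, no filter, DESeq2 1.42.0, groups alone, a replicate block, no mitochondrial genes, offsets with a loess fit (span 0.3) on GC content or on length, and each library left out. The length in that fit was that of all annotated exons of a gene joined, not that of the longest transcript.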

Additional observations from a re-analysis of the deposited data

Results flagged for a closer look

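For 13 of the 43 tested motor genes the enrichment of the pull-down over its own input differed between the synaptoneurosome layer and whole tissue, by a test of that difference (edgeR's quasi-likelihood test, adjusted over all genes). Of all genes tested, 20.2% were called in the same test, 12.9% above 0 and 7.32% below 0. In log2 units the difference was 2.82 for Kif5c, 1.87 for Dync1li2, 2.21 for Kif3c, 4.84 for Dync1i1, 2.48 for Klc2, 1.95 for Kif21a, 1.56 for Klc1, 1.98 for Dync1h1, 2.45 for Dync2h1, 1.58 for Kif21b, 1.01 for Kif1a and 3.69 for Kif17. Each of these had a higher ratio of pull-down to input in the layer than in whole tissue. Within the layer, only Kif21b of these was called above its input, and Kif5c was called below it. For Dync2li1 the difference was -4.45, a lower ratio in the layer than in whole tissue. Kif3c had 0.58 ± 0.32 in PAP TRAP over synaptoneurosome input and -1.63 ± 0.32 in cortex TRAP over cortex input. Dync1li2 had 0.18 ± 0.26 and -1.69 ± 0.26, and Klc1 had -0.75 ± 0.26 and -2.31 ± 0.27 in the same comparisons (SE). The first of these Klc1 changes was not called. It was called lower with GC-corrected offsets (-0.98, adjusted p = 0.0393) and with DESeq2 (-0.81, adjusted p = 0.019). The difference for Kif17 lost its call in 9 of 19 alternatives, with values from 3.29 to 4.93. That for Dync2li1 was -3.69 without cortex TRAP replicate 1 (adjusted p = 0.0454). Those for Dync1h1, Kif1a, Kif21b and Dync2h1 lost theirs with length-corrected offsets (0.91, 0.44, 0.77 and 1.36, adjusted p from 0.154 to 0.357). The neuron marker sums given with the libraries differed between PAP TRAP and cortex TRAP and overlapped between both inputs. The astrocyte marker sums differed between both inputs and overlapped between both pull-downs, although most astrocyte markers taken singly were lower in PAP TRAP. The part of these cell types in the 13 differences was not tested.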

How the results depend on the processing

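PAP TRAP against cortex TRAP called 20 to 25 motor genes (16 to 19 higher, 4 to 6 lower) with any library left out, cortex TRAP against cortex input 17 to 21, synaptoneurosome input against cortex input 6 to 8, and the difference between both enrichments 12 to 15. Calls over all genes moved as well, on 13928 to 14191 tested genes. In the same order they numbered 3566 to 4673, 3859 to 5093, 608 to 1393 and 2161 to 2999. Motor gene counts near 0 moved most. In PAP TRAP against synaptoneurosome input the count was 1 with RLE scaling, 1 with GC-corrected offsets, 5 with DESeq2 and 0 to 3 with a library left out, in place of 2. Of these, higher calls numbered 0 with RLE scaling or GC-corrected offsets, 2 with no filter, the replicate block, no mitochondrial genes or DESeq2, and 0 to 2 without a library. Lower calls numbered 0 without mitochondrial genes, 3 with DESeq2 and 0 to 1 without a library. Over all genes, higher and lower calls in that comparison together numbered 569 with RLE scaling and 423 with GC-corrected offsets, in place of 605. They numbered 895 with no filter, 653 with the replicate block and 724 without mitochondrial genes. DESeq2 called 1253, and 292 to 740 were called with a library left out. Higher calls in cortex TRAP against cortex input were 5 with DESeq2 and 1 to 4 without a library. Over all genes DESeq2 called 5347 there, higher and lower together, in place of 4737. Lower calls in synaptoneurosome input against cortex input were 1 with the replicate block, length-corrected offsets or DESeq2, 2 with the compared groups alone and 0 to 1 without a library. Over all genes, higher and lower calls there together numbered 1358, 1269, 2035 and 2251 with these settings in that order, in place of 1246. Differences called below 0 were 2 with no filter, 4 with length-corrected offsets, 3 with DESeq2 and 1 to 2 without a library. Over all genes, differences called on either side of 0 numbered 2854 with no filter, 2335 with length-corrected offsets and 3364 with DESeq2, in place of 2699. As a share of all gene counts the motor genes held 0.751% in PAP TRAP, 0.209% in synaptoneurosome input and 0.455% in cortex input. Scaling without mitochondrial genes moved the median log2 change of all genes from -0.28 to -0.11 in PAP TRAP against cortex TRAP.

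Length-corrected offsets turned the sign of Kif2a in PAP TRAP against cortex TRAP (-0.073), of Dync2h1 in PAP TRAP against synaptoneurosome input (-0.017), of Kif1b (0.38), Kif5b (0.12) and Kif21b (0.31) in cortex TRAP against cortex input, of Kif21b (-0.05) and Dync2h1 (-0.21) in synaptoneurosome input against cortex input, and of Kif1b (-0.91, called there with adjusted p = 0.0332) and Kif5b (-0.22) in the difference. In PAP TRAP against synaptoneurosome input the sign also turned for Kif2a (0.18), Kif5b (0.19), Klc2 (-0.38) and Dctn1 (-0.18) with GC-corrected offsets, for Kif5b (0.042) without mitochondrial genes, and for Klc2 (-0.0074 and -0.007) and Dync2h1 (-0.034 and -0.0343) with RLE scaling and with DESeq2. Apart from Kif1b, none of these was called with the settings used in the report. The cause was not tested. With single libraries left out, values straddled 0 in PAP TRAP against synaptoneurosome input for Kif5b (-0.22 to 0.25), Kif21a (-0.21 to 0.25), Klc2 (-0.25 to 0.61), Dync1h1 (-0.30 to 0.62), Dync1i1 (-0.91 to 0.30), Dync1li1 (-0.87 to 0.21), Dync2h1 (-0.21 to 0.23) and Dctn1 (-0.054 to 0.38). They did so for Kif3a in PAP TRAP against cortex TRAP (-1.39 to 1.47), cortex TRAP against cortex input (-2.46 to 0.33), synaptoneurosome input against cortex input (-0.65 to 0.0003) and the difference (-1.17 to 1.69), for Dync1i2 (-0.0086 to 0.33) and Dctn2 (-0.13 to 0.066) in cortex TRAP against cortex input, and for Kif17 (-0.54 to 1.03) in synaptoneurosome input against cortex input.

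The replicate numbers were not taken as pairs, since no label says what they share and same-numbered libraries correlated from -0.048 to 0.135, so that not every pair was over 0.1. Different-numbered libraries correlated from -0.163 to 0.081. Of the 18 same-numbered correlations 16 were above 0, and in 27 of 36 sets of a library against the 3 of another group the same number correlated best, a hint from the data and not from the design. With the replicate block, 4564 genes were called in PAP TRAP against cortex TRAP, in place of 4526, and among motor genes Kif1c in PAP TRAP against synaptoneurosome input and Klc2 in synaptoneurosome input against cortex input (-1.21, adjusted p = 0.0432) gained a call, while Kif13a and Kif3b in cortex TRAP against cortex input and Klc4 lost theirs. The synaptoneurosome inputs, with at most 2476076 nuclear counts, limit what can be seen of low motor messages.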
